A study of Bos taurus with 12 samples.

Results

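The miR-30 family was described here in extracellular vesicles (EVs) of bovine plasma. EVs are membrane-bound particles that cells release into body fluids and that carry RNA and protein. The family was taken by name: bta-miR-30a-5p, miR-30b-5p, miR-30c, miR-30d, miR-30e-5p and miR-30f, which make up 6 of the 783 known bovine miRNAs in the table, 336 of which had at least 1 read in a library. The rule used names and no measured values, although earlier results of these data were known when the family was picked. All 6 members had reads.

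The 12 libraries came from 6 crossbred beef heifers (Charolais and Limousin crosses), each bled on Day 7 of an unstimulated (U) cycle and again on Day 7 of a superstimulated (S) cycle. All heifers first had their cycles synchronised with a progesterone device, gonadotrophin-releasing hormone and prostaglandin. In the S cycle they also received decreasing doses of follicle-stimulating hormone (FSH) with prostaglandin and were then inseminated, so that FSH, prostaglandin, insemination and the later date of the S sample cannot be told apart. The authors chose these 6 heifers after the S cycle from a larger superstimulated set, by their number of corpora lutea. High responders (H, 3 heifers) came from the upper quartile of that set and low responders (L, 3 heifers) from the lower quartile. H and L are thus selected extremes, and heifers between them are absent. This gave the groups UL, UH, SL and SH with 3 libraries each. The labels UL and UH therefore name how a heifer responded later, not a treatment at the time of sampling. Plasma collects vesicles from every tissue, and in such bulk samples fewer vesicles of a cell type and less RNA per vesicle cannot be told apart.

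A miRNA is a short RNA that guides repression of mRNAs, mainly through pairing of its seed, bases 2 to 8 from its 5′ end. Members of a family share the seed and can therefore repress overlapping sets of mRNAs, while the bases after the seed differ. The miR-30 family is broadly expressed in mammals. It is known from work on epithelial cells, heart and vessels, where described targets include the transcription factor SNAI1, the autophagy gene BECN1, the connective tissue growth factor CTGF and the Notch ligand DLL4.

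The 6 mature sequences are shown because they explain what the members share and which members a read could be mistaken between. They are written 5′ to 3′ as in the deposited table, with T in place of U, and the capitals mark the seed.
bta-miR-30a-5p: tGTAAACAtcctcgactggaagct
bta-miR-30d: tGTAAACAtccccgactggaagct
bta-miR-30e-5p: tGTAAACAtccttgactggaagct
bta-miR-30b-5p: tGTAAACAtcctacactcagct
bta-miR-30c: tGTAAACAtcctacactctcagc
bta-miR-30f: tGTAAACAccctacactctcagct

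The seed GTAAACA was found in these 6 miRNAs and in no other of the 783 (0.766% of the table). After the seed, the family fell into a pair of sequence subgroups. miR-30a-5p, miR-30d and miR-30e-5p differed from each other by 1 or 2 bases, and miR-30b-5p, miR-30c and miR-30f by 2 or 3 (edit distance, insertions and deletions included), while members of different subgroups differed by 5 to 7. Counted from 1 at the 5′ end, miR-30a-5p became miR-30d by T12C and miR-30e-5p by C13T, and miR-30c differed from miR-30f in the seed-flanking T9C and in length. The mature lengths were 22 nt for miR-30b-5p, 23 nt for miR-30c and 24 nt for the other members. The authors kept only reads with a perfect match. How a truncated read that fits more than 1 member was counted is not given in the sources used here. miR-30b-5p and miR-30c part only near their 3′ ends, so a read cut short there can fit both. Their levels are therefore less certain relative to each other. miR-30a-5p, miR-30d and miR-30e-5p part at bases 12 and 13, and a perfect match over these bases tells them apart.

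In RefSeq's cattle annotation (assembly ARS-UCD2.0, not the build of the files), all 6 genes were found and lay in neighbouring pairs with 0 genes between them. MIR30A was next to MIR30F, MIR30B next to MIR30D, and MIR30C next to MIR30E. The last pair lay inside NFYC, which encodes a subunit of the transcription factor NF-Y. Each pair thus joins a member of one sequence subgroup with a member of the other. The table lists 1 opposite arm, miR-30b-3p, which had 0 reads in all 12 libraries.

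The libraries held 21466 to 77433 reads of known miRNAs, and 169 to 221 miRNAs with at least 1 read. Levels are given below as normalized reads, which are whole reads recovered from the deposited values, divided by a library's size after trimmed mean of M-values (TMM) scaling and brought back to the mean library. On this scale, 3 reads, the limit that a count of 0 allows, were worth 1.81 (SH3) to 6.03 (SH2) normalized reads. The reads were collapsed by molecular identifiers by the authors, and the intervals given for shares cover counting error only.

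The family accounted for a small part of the vesicle miRNAs and was dominated by miR-30d. Together the 6 members made up 0.881% (SH1, 95% Wilson interval 0.793 to 0.980) to 2.21% of the known miRNA reads of a library, with a mean of 1.80% ± 0.343 (SD, n = 12). miR-30d alone gave 61.1% ± 7.48 of the family's reads (SD, n = 12), from 47.8% in SH1 to 72.7% in SL3. miR-30a-5p followed with 20.0% ± 5.78. The subgroup of miR-30a-5p, miR-30d and miR-30e-5p held 86.5% to 94.4% of the family in each library, and the subgroup of miR-30b-5p, miR-30c and miR-30f held the rest.

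The order of the members was nearly the same in all libraries. miR-30d was above miR-30a-5p in 12 of 12 libraries, with a mean ratio of 3.13. miR-30a-5p was above miR-30e-5p in 11 of 12, with a mean ratio of 1.81, and SH1 was the exception. miR-30e-5p was above miR-30c in 12 of 12 (mean ratio 2.17), and miR-30c above miR-30f in 12 of 12 (3.63). The last neighbours did not differ beyond their spread: miR-30f was above miR-30b-5p in 8 of 12 libraries, and the mean log2 ratio of 0.35 had an SD of 1.59. Ranked among all miRNAs of a library, miR-30d had a median rank of 16 over the 12 libraries, miR-30a-5p of 32, miR-30e-5p of 45.5, miR-30c of 65, miR-30f of 88.5 and miR-30b-5p of 111.

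**Figure D1:**
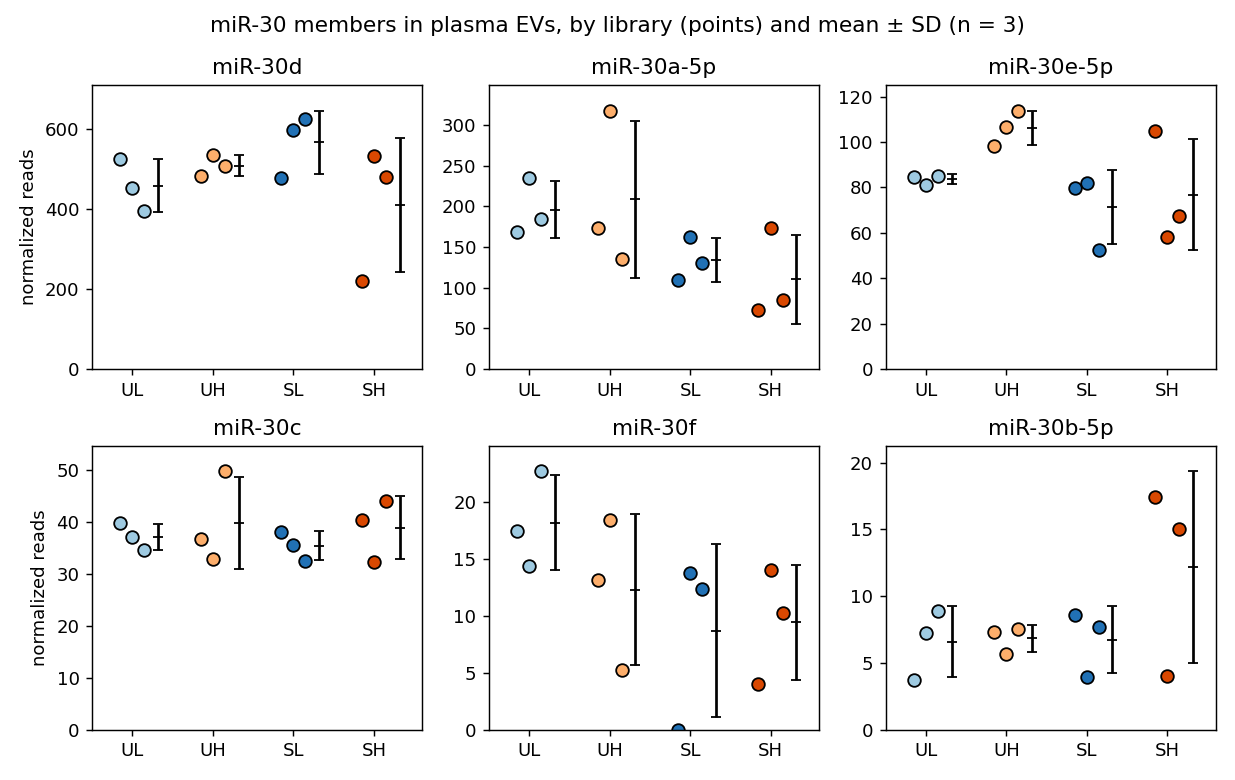
Normalized reads of each miR-30 member (y axis, linear and starting at 0, with its own range in each panel) in the 4 groups (x axis), where each point is 1 library and the bar beside the points is the mean ± SD (n = 3). miR-30d lies highest, at 219 to 624 normalized reads, and miR-30a-5p in SL lies below all UL libraries, while the other groups overlap for most members.

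miR-30d, the most abundant member, had 525, 453 and 394 normalized reads in UL1, UL2 and UL3, and 482, 534 and 506 in UH1, UH2 and UH3. In the S cycle it had 476, 598 and 624 in SL1, SL2 and SL3, and 219, 532 and 480 in SH1, SH2 and SH3. SH1 lay far below the other 11 libraries, and the remaining libraries overlapped between groups.

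miR-30a-5p had 168, 235 and 184 normalized reads in UL1 to UL3, and 173, 317 and 135 in UH1 to UH3. It had 109, 163 and 130 in SL1 to SL3, and 72.5, 173 and 84.9 in SH1 to SH3. All SL libraries were below all UL libraries, whereas SH and UH overlapped through SH2.

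miR-30e-5p had 84.8, 81.3 and 85.0 normalized reads in UL1 to UL3, and 98.4, 107 and 114 in UH1 to UH3. It had 79.8, 81.8 and 52.5 in SL1 to SL3, and 105, 58.3 and 67.5 in SH1 to SH3. All UH libraries were above all UL libraries, and the S groups overlapped with each other and with the U groups of the same response.

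miR-30c was the steadiest member. Unstimulated libraries had means of 37.1 ± 2.53 (UL) and 39.7 ± 8.83 (UH) and superstimulated ones of 35.3 ± 2.81 (SL) and 38.8 ± 6.05 (SH) normalized reads (SD, n = 3), and its 12 values lay between 32.1 and 49.6. Its spread within groups on the log2 scale (SD 0.203) was no larger than the SD that counting alone would give (0.242). For miR-30a-5p and miR-30d the spread within groups was larger, 0.495 and 0.381 against 0.117 and 0.0681 from counting.

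The pair at the low end had few reads, with 0 to 26 per library for miR-30f. miR-30f had 17.5, 14.4 and 22.7 normalized reads in UL1 to UL3, 13.2, 18.5 and 5.26 in UH1 to UH3, 0, 13.8 and 12.4 in SL1 to SL3, and 4.03, 14.1 and 10.2 in SH1 to SH3. The 0 in SL1 allows up to 3.68 normalized reads. miR-30b-5p averaged 6.60 ± 2.66 (UL), 6.85 ± 1.01 (UH), 6.75 ± 2.48 (SL) and 12.2 ± 7.17 (SH) normalized reads (SD, n = 3), with 2 to 25 reads per library.

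The sum of the 6 members was 839, 828 and 729 normalized reads in UL1 to UL3, 810, 1015 and 817 in UH1 to UH3, 712, 895 and 859 in SL1 to SL3, and 458, 814 and 701 in SH1 to SH3. SH1 had the lowest sum and UH2 the highest, and the groups overlapped, SH and UH only through SH2 at 814 and UH1 at 810.

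**Figure D2:**
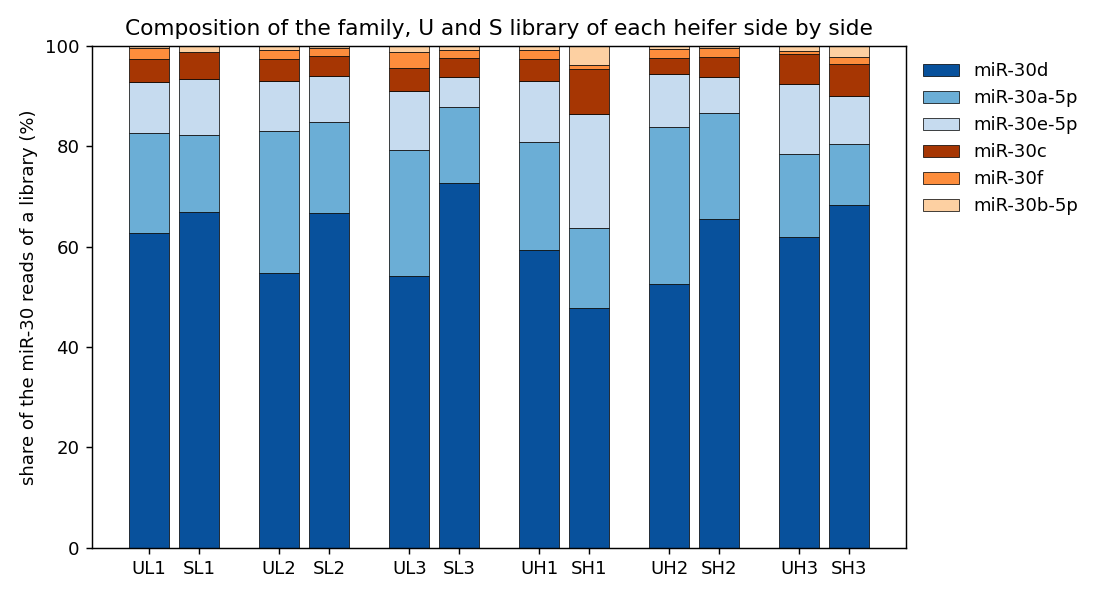
Share of each member in the miR-30 reads of a library (y axis, percent, stacked to 100), with the U and S library of each heifer side by side (x axis). The share of miR-30a-5p is lower in the S library of all 6 heifers, and SH1 has the smallest share of miR-30d, 47.8%.

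The first question was whether later high and low responders already differed before treatment. Members were tested with limma on log2(normalized reads + 1) with all miRNAs that passed a filter of at least 1 read in 2 of the 3 libraries of a group, and a miRNA was called where its log2 difference reached 1 in either direction and its unadjusted P did not exceed 0.05. In UH vs. UL, 0 of 6 members were called, where 2.64% of the 227 miRNAs tested were. The median log2 difference of the members was 0.09, against 0.04 over all miRNAs tested. The smallest unadjusted P among them belonged to miR-30e-5p, 1.26-fold higher in UH (log2 difference 0.34, SE 0.28, 95% confidence interval -0.26 to 0.94; limma adjusted P = 0.928). It was also the 1 member of 6 whose groups did not overlap, against 7.49% of all miRNAs tested. An exact test of 3 against 3 libraries cannot go below a P of 0.1. For miR-30d the interval of the log2 difference ran from -0.39 to 0.70, and for miR-30a-5p from -0.67 to 0.69.

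In SH vs. SL, 0 of 6 members were called and 0 of 6 had groups that did not overlap, with 5.47% of 201 miRNAs called and 8.96% not overlapping. The members' median log2 difference was 0.11, against -0.08 over all. miR-30d was 1.47-fold lower in SH (log2 difference -0.56, SE 0.40, interval -1.45 to 0.34; limma adjusted P = 0.697), a value that rested on SH1: without that library the log2 difference was -0.15. miR-30a-5p had a log2 difference of -0.37 (interval -1.27 to 0.54). Averaged over both cycles with the heifer as the replicate, H and L heifers gave log2 differences between -0.20 (miR-30d) and 0.36 (miR-30b-5p), with 0 of 6 members called against 2.52% of 238 miRNAs.

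**Figure D3:**
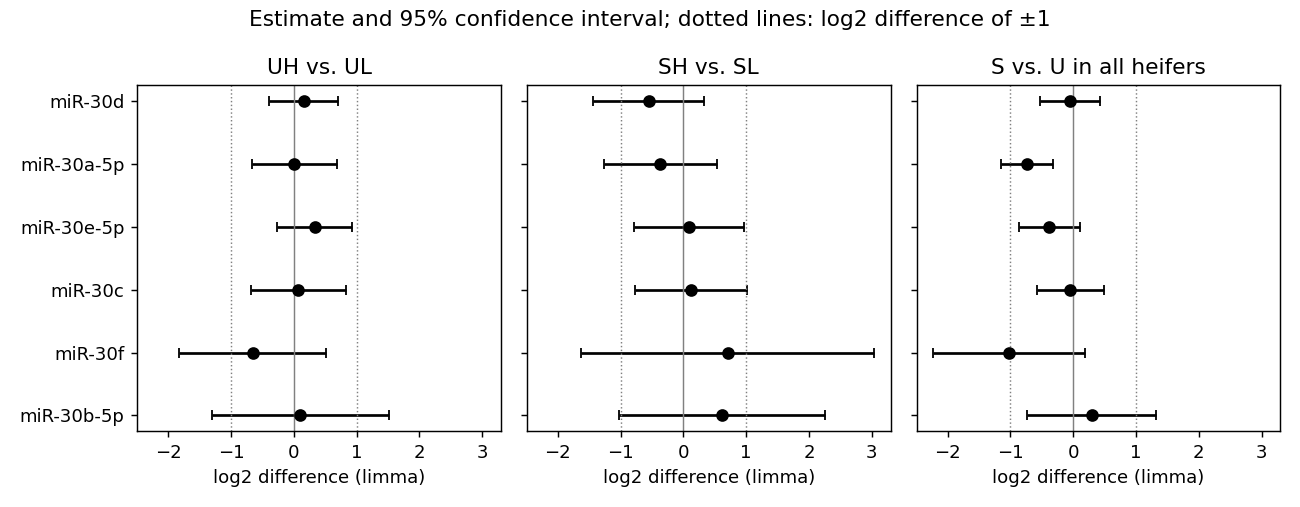
Estimated log2 difference (x axis, common to the 3 panels) of each member (y axis) from limma, with its 95% confidence interval, in UH vs. UL, SH vs. SL and S vs. U in all heifers. The intervals in the first 2 panels include 0 for every member, and in S vs. U the interval of miR-30a-5p, -1.16 to -0.31, lies below 0.

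The second question was how the vesicle miRNAs of the same heifer differed between the cycles. U and S libraries were joined by the heifer number that they share in the labels, which do not name the animal, and every count over heifers rests on that pairing. miR-30a-5p was lower in the S library of 6 of 6 heifers. It went from 168 to 109 normalized reads in heifer L1, from 235 to 163 in L2, from 184 to 130 in L3, from 173 to 72.5 in H1, from 317 to 173 in H2 and from 135 to 84.9 in H3. The heifers thus ranged from a log2 difference of -0.50 to -1.25, with a mean of -0.74 and an SD of 0.28 (n = 6). The exact two-sided sign-flip test over the 6 heifers gave a P of 0.03125, the smallest it can give. Being lower in S in 6 of 6 heifers was seen in 2.1% of the 238 miRNAs tested (5 miRNAs), and being higher in 6 of 6 in 0%. Among the 60 miRNAs that averaged 50 reads or more, as miR-30a-5p did, 4 were lower in 6 of 6 heifers and 0 higher.

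In the fit of S vs. U in all heifers, with the heifer as a term, miR-30a-5p was 1.67-fold lower in S (log2 difference -0.74, SE 0.20, interval -1.16 to -0.31, unadjusted P = 0.0019). It was not called, since the difference was under 1, and its adjusted P was 0.153, equal to the smallest of that limma comparison. An unadjusted P of at most 0.05 was reached by 1 member of 6 and by 8.82% of all 238 miRNAs (21 miRNAs), and no miRNA reached a limma adjusted P of 0.05. All miRNAs tested had a median log2 difference of -0.13 in this comparison, and the 6 members one of -0.21. Calls were made for 0 of 6 members and for 5.46% of the 238 miRNAs.

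The other members gave no such common direction. miR-30d was lower in S in 4 heifers and higher in 2, with a mean log2 difference of -0.05 and an SD of 0.62 (n = 6, exact sign-flip P = 0.781). H1 had the lowest difference for miR-30d, -1.13, and L3 the highest, 0.66. miR-30e-5p was lower in 4 of 6 heifers (mean -0.38, SD 0.43, exact sign-flip P = 0.188). miR-30c stayed between -0.17 and 0.13 in all 6 heifers (mean -0.05, SD 0.10).

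miR-30f was lower in 5 of 6 heifers (mean log2 difference -1.02, SD 1.75, exact sign-flip P = 0.188), with the largest single difference in L1, whose S library had no read of it. Without heifer L1 the mean was -0.38. miR-30b-5p was lower in 3 heifers and higher in 3 (mean 0.29, SD 0.83). The sum of the family was lower in 4 of 6 heifers, with a mean log2 difference of -0.21 and an SD of 0.37. Without heifer H1 that mean was -0.085.

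**Figure D4:**
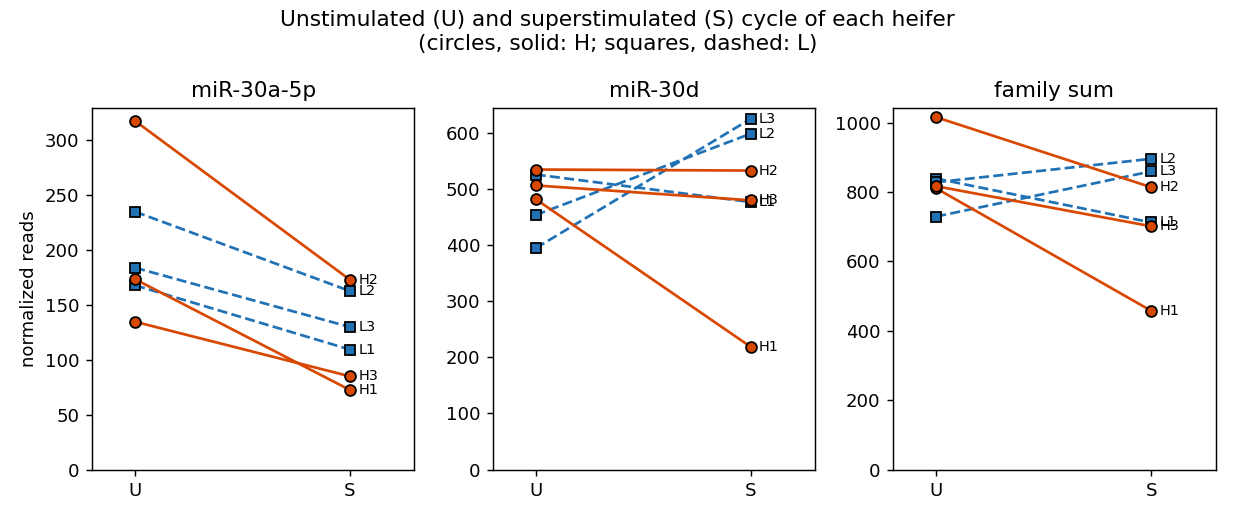
Normalized reads (y axis, linear from 0) of miR-30a-5p, miR-30d and the sum of the family in the U and S library of each heifer (x axis), joined by a line for each of the 3 H heifers (solid, circles) and the 3 L heifers (dashed, squares). The 6 lines of miR-30a-5p all go down, whereas those of miR-30d go up in L2 and L3 and down in H1, from 482 to 219.

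The lower level of miR-30a-5p also showed within the family, a measure that does not depend on how libraries were scaled. Its share of the family's reads was lower in the S library of 6 of 6 heifers, and in 4 of them the 95% Wilson intervals of the U and S shares were apart. Heifer H2 went from 31.3% (28.9 to 33.7) to 21.2% (17.5 to 25.5), and heifer L2 from 28.4% (25.5 to 31.4) to 18.2% (15.8 to 20.8). The ratio of miR-30a-5p to miR-30d, which differ by the single T12C, was lower in S in 6 of 6 heifers, with a mean log2 difference of -0.69 and an SD of 0.37. In heifer H1 this difference was only -0.12, since miR-30d was lower there too (-1.13). The intervals of the miR-30a-5p share overlapped in H1, with 21.4% (18.2 to 25.0) in U and 15.8% (12.3 to 20.1) in S. miR-30d took a larger share in S in 5 of 6 heifers, H1 being the exception.

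By response group, miR-30a-5p in SL vs. UL was 1.46-fold lower (log2 difference -0.55, SE 0.24, unadjusted P = 0.044, limma adjusted P = 0.702). In SH vs. UH it was 1.90-fold lower (log2 difference -0.93, SE 0.47, unadjusted P = 0.064, limma adjusted P = 0.736). With the heifer as a block the unadjusted P was 0.032 in L and 0.017 in H. Over the 10 alternatives that left out no library, this block among them, the limma adjusted P was at least 0.655 in L and 0.377 in H. In H, miR-30a-5p passed both thresholds for a call when UH3 (log2 difference -1.19) or SH2 (-1.30) was left out. The log2 difference was -0.58 (unadjusted P = 0.291) without UH2 and -0.68 (unadjusted P = 0.196) without SH1 in the same limma fit. The difference between the changes of H and L heifers was -0.38 on the log2 scale (SE 0.38, interval -1.20 to 0.44, limma adjusted P = 0.817). The H heifers had log2 differences of -1.25, -0.87 and -0.66, and the L heifers of -0.61, -0.53 and -0.50. H3 (-0.66) and L1 (-0.61) lay close together, and the share of all miRNAs that split H from L in this way was not counted. The SD of the 3 heifers was 0.30 in H and 0.06 in L, while limma's SE also draws on the spread of the other miRNAs.

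Across the members, 0 of 6 were called in SH vs. UH (5.66% of 212 miRNAs called) and 0 of 6 had groups that did not overlap (7.55% of all). In SL vs. UL, 0 of 6 were called (2.34% of 214 miRNAs) and 2 of 6, miR-30a-5p and miR-30f, had groups that did not overlap (7.94% of all). For miR-30f this rested on a narrow gap, between 13.8 normalized reads in SL2 (14 reads) and 14.4 in UL2 (16 reads). miR-30f had a log2 difference of -1.70 in SL vs. UL (SE 0.93, unadjusted P = 0.097), which was -0.43 without SL1. It passed the call thresholds with no filter on low reads (unadjusted P = 0.041) or without SL2 (log2 difference -2.37). The median log2 difference of the members was -0.37 in SH vs. UH and -0.16 in SL vs. UL, against -0.14 and -0.07 over all miRNAs tested.

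In the test of whether H and L heifers changed differently between cycles, 0 of 6 members were called, against 5.46% of the 238 miRNAs. miR-30d had a log2 difference of -0.71 between the changes (SE 0.41, interval -1.60 to 0.18, limma adjusted P = 0.700), which was -0.35 without heifer H1. The sum of the family changed by a mean log2 difference of 0.04 ± 0.24 in L and -0.45 ± 0.32 in H (SD, n = 3). Leaving out SH1 made the value of SH vs. UH -0.21.

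Other measures were compared between the cycles beside these results. The endothelial markers miR-126-3p and miR-126-5p (both of 2 listed had reads in every group, none at 0) were lower in S in 6 of 6 heifers when summed, with a mean log2 difference of -0.71 and an SD of 0.64. Their sum ranged from 4059 to 7001 normalized reads in UL, 4656 to 11880 in UH, 3523 to 6413 in SL and 1686 to 7665 in SH. The part of these markers in the lower miR-30a-5p was not tested.

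The listed erythrocyte markers (3 of 3 with reads) were higher in S in 4 of 6 heifers and spanned 982 to 2756 normalized reads in 11 libraries and 8362 in SH3. The 5 leukocyte markers were higher in S in 4 of 6, at 1676 to 3646 normalized reads. The liver marker miR-122 and the muscle markers were lower in 3 of 6, with the muscle marker miR-133b at 0 in UH, SL and SH and the sum of the muscle markers at 1706 in UL1. The ratio of miR-451 to miR-23a, a measure of haemolysis, was 0.0854 (UH2) to 0.639 (SH1) and was lower in S in 3 heifers and higher in 3. SH1, the library with the fewest miR-30 reads for its size, thus had the highest such ratio, and the part of this in its low miR-30d was not tested. The S library was the shallower one in 4 of 6 heifers, and the part of depth in the lower miR-30a-5p was not tested.

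The members did not vary as a block over the 12 libraries. Pearson's r between log2 levels, given as a description over libraries that share scaling and heifers, was 0.58 between miR-30a-5p and miR-30f and 0.45 between miR-30c and miR-30e-5p, which are genomic neighbours. For the third pair of neighbours, miR-30b-5p and miR-30d, it was -0.70. miR-30b-5p had only 2 to 25 reads per library. SH1 held its highest value (17.5 normalized reads) and the lowest of miR-30d (219). The 0.58 includes SL1, which had 0 reads of miR-30f. The spread of miR-30c within groups was no larger than counting alone would give. The part of counting error and of single libraries in these correlations was not tested. Within the sequence subgroup of miR-30a-5p, Pearson's r was 0.48 with miR-30d and 0.14 with miR-30e-5p, and between miR-30d and miR-30e-5p it was -0.43.

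The miRNAs whose log2 levels were most like the sum of the family, among the 57 non-members whose reads averaged 50 or more, were miR-23b-3p (r = 0.90), miR-1468 (0.85) and miR-126-5p (0.82), over 12 libraries. The rank correlation (Spearman's rho) was lower, at 0.77, 0.66 and 0.62 in the same order. Ranked against miR-30a-5p alone, a ranking chosen after the values were seen, the same 3 led, with r = 0.95 for miR-1468, 0.93 for miR-126-5p and 0.92 for miR-23b-3p. Spearman's rho was 0.87, 0.85 and 0.78 for them in that order. miR-1468 went from 177 normalized reads in SH1 to 1360 in UH2, the libraries in which miR-30a-5p was also lowest and highest.

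**Figure D5:**
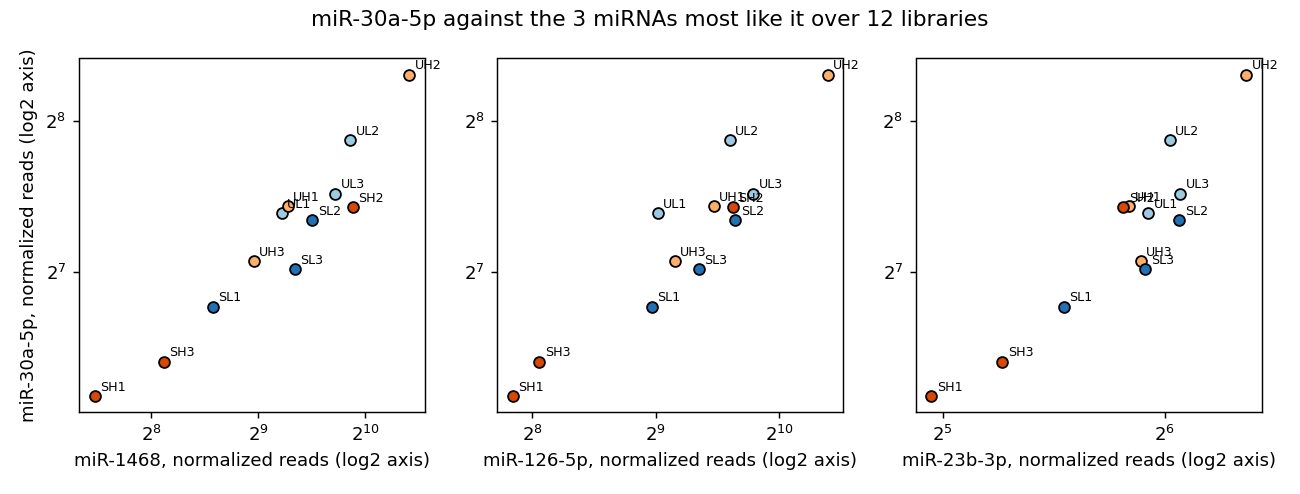
miR-30a-5p (y axis, normalized reads, log2 axis) against miR-1468, miR-126-5p and miR-23b-3p (x axes, normalized reads, log2 axes), each point being 1 of the 12 libraries and the colour its group. SH1 and SH3 lie at the lower left and UH2 at the upper right of all 3 panels.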

How the data were processed

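Small RNA libraries with unique molecular identifiers were made from plasma EV-RNA of 6 heifers in both cycles. Per the labels and the study's methods, the authors trimmed reads with cutadapt, collapsed them by identifier, mapped them to UMD3.1 with Bowtie2 2.2.2, kept perfect matches, annotated them against miRBase release 21 and tested them with edgeR after TMM. The deposited values, reads scaled to 1000000 mapped ones with decimals dropped, are treated here as a score. Because all values of a library are multiples of what 1 read is worth (4.48 to 7.93), whole reads were recovered and divided by TMM-scaled sums of known miRNA reads. Since this rests on cut values, limma 3.58.1 (R 4.3.3, mean-variance trend, pseudocount 1) took the place of a count test, with Benjamini-Hochberg adjustment over all miRNAs tested and the call thresholds of the study's methods. The paper also gives raw read counts in its supplement, but all levels here rest on the recovered reads. All 12 columns were used.

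Named were the 6 members, miR-30 arms, miRNAs with the family's seed and the 3 miRNAs most like the family sum. The members, marker lists and tests were chosen with earlier results of these data known. Replicates are different heifers, and the 12 pairs within groups differed beyond sampling noise (chi-square per degree of freedom at least 9.22). U and S libraries were paired by the number they share within a response group, since each heifer was sampled in both cycles. The labels do not name the animal. Deviations from group means within pairs correlated at -0.05 to 0.21, above 0.1 in 2 of 6, so the data alone do not show the pairing. On simulated reads, a log2 change of 2 in miRNAs of at least 10 reads was called for 99.4% in S vs. U and 84.9% in the change of H vs. L. The simulation gave all miRNAs the same spread setting and libraries no heifer effect. Its change was larger than the members' estimates, such as -0.74 for miR-30a-5p in S vs. U. These shares therefore do not tell how often changes of that size would be called. Alternatives covered scaling, pseudocount, filter, trend, samples in the fit, heifer block and left-out libraries.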

Additional observations from a re-analysis of the deposited data

How the results depend on the processing

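The lower miR-30a-5p in S vs. U in all heifers kept its direction and an unadjusted P of at most 0.05 under all 15 alternatives (log2 difference -0.81 to -0.63, adjusted P 0.133 to 0.610). That includes the fit with no replicate block (unadjusted P = 0.011). The replicate block left 0 members called in SH vs. UH and SL vs. UL, and changed no other call among the members.

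The numbers of members called were 0 in each comparison and ranged from 0 to 1 when 1 library or heifer was left out of SH vs. UH (miR-30a-5p without UH3 or SH2), SL vs. UL (miR-30f without SL2) and S vs. U (miR-30f without H3). With no filter, 1 member (miR-30f) was called in SL vs. UL. With a mean of at least 10 reads, miR-30b-5p could be tested only in SH vs. UH, and miR-30f could not be tested in SH vs. SL.

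Signs of single members turned in the following cases. In UH vs. UL, miR-30a-5p was -0.011 with median-of-ratios and -0.10 without TMM, and -0.34 to 0.28 with 1 library left out. There miR-30b-5p was -0.21 to 0.33 and miR-30c -0.093 to 0.20 with 1 library left out, and miR-30c -0.031 without TMM. In SH vs. SL without TMM, miR-30c was -0.021 and miR-30e-5p -0.059. With 1 library left out, miR-30e-5p was -0.16 to 0.26 and miR-30f -0.57 (without SL1) to 1.38. In SH vs. UH, miR-30c was 0.047 with median-of-ratios and -0.15 to 0.15 with 1 library left out, and miR-30f -0.81 to 0.11. In SL vs. UL, miR-30b-5p was -0.018 on the deposited scale and -0.28 to 0.34 with 1 library left out. In S vs. U, miR-30d was -0.19 to 0.17 with 1 heifer left out and turned without H1. In H vs. L over both cycles, miR-30c was -0.026 and miR-30f -0.069 without TMM, and miR-30f -0.070 with a pseudocount of 2. With 1 heifer left out, miR-30a-5p was -0.54 to 0.020, miR-30c -0.032 to 0.22, miR-30d -0.34 to 0.020 and miR-30f -0.62 (without L1) to 0.40. In the change of H vs. L, miR-30c was -0.029 (without H1) to 0.12 with 1 heifer left out. The causes were not tested.

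The family sum moved by more than its spread in UH vs. UL on the deposited scale (0.30), and with all members weighted alike it turned from -0.36 to 0.10 in SH vs. SL, from 0.04 to -0.37 in SL vs. UL and from -0.49 to 0.10 in the change of H vs. L. Without miR-30d it was -0.42 in SL vs. UL and -0.15 in that change, and the cause was not tested. The median log2 difference of all miRNAs in SH vs. SL was -0.08 with TMM and -0.23 without, and that in UH vs. UL 0.04 with TMM and 0.16 on the deposited scale. miR-30b-5p and miR-30f had a median of 7.5 and 11.5 reads per library. For miR-30b-5p the SD from counting (0.528, log2) came near the SD within groups (0.649), but for miR-30f it did not (0.386 against 1.26). For miR-30f the SD from counting leaves out SL1, which had 0 reads, while the SD within groups includes that library.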
